A study of Vitis vinifera with 27 samples.

Results

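The libraries of latent buds of node 2 at BBCH77 were compared with those of node 2 at BBCH63, to describe which genes were higher and lower in basal buds at cluster closure, during berry growth, than at anthesis. The 6 libraries were chosen by the stage and the node in their labels, out of 27 in the series, and no measured value entered the choice. All came from field-grown vines of the wine cultivar Merlot grafted on a rootstock, in a single vineyard and season, with no experimental treatment. The vineyard had standard plant protection and canopy management, and lateral shoots were pruned through the season. The BBCH77 group and the BBCH63 group hold 3 biological replicates each, every replicate being a separate pool of buds excised from that node position on shoots of several vines, so p values measure the spread between pools. Each stage was a single sampling session, and stage and sampling day cannot be told apart. The series also holds nodes 5 and 10, and BBCH90 (harvest).

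Latent buds of grapevine form in the axil of a leaf during the summer and open in the next season. Each is a compound organ in which a shoot meristem is enclosed by scales and lays down leaf primordia and uncommitted primordia that can become inflorescences or tendrils. The buds at the base of the shoot are the oldest, and the weeks around and after flowering of the current crop are the time when floral induction and initiation take place in them.

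Depth was alike in the 6 libraries, with 39427753 to 43901184 counts each, within a range of 34531620 to 53307172 over all 27. Of 35134 genes in the table, 22999 passed the low-count filter and were tested in 24 libraries, leaving out the third replicate of node 10 at each stage as the study did. Expression is given in CPM, the counts of a gene scaled to a common library size after TMM normalization. A DEG changed at least 2-fold with an adjusted p (edgeR, quasi-likelihood F test, Benjamini-Hochberg over the genes tested) under 0.05. Bud meristem markers were detected in each library. VvVFL, the grapevine homologue of the meristem identity gene LEAFY, had 5.76, 7.24 and 7.42 CPM at BBCH77, against 4.65, 4.85 and 5.47 CPM at BBCH63. The replicates of the 2 stages did not agree equally well. Across the 3000 most variable genes, BBCH77 replicate 3 correlated with the other BBCH77 libraries of node 2 at r = 0.151 and with those of node 5 at r = 0.882, whereas replicates 1 and 2 correlated with their own group at r = 0.563 and r = 0.795, and the BBCH63 libraries at r = 0.794 to 0.919. Of 1109 genes that differed between nodes 2 and 5 at BBCH63, BBCH77 replicate 3 lay nearer to the BBCH77 level of node 5 than to the mean of replicates 1 and 2 for 891 genes (80.3%). The same was found for 111 genes (10.0%) in replicate 1 set against replicate 2, and for 287 (25.9%) in replicate 2 set against replicate 1. Results are therefore given with and without this library, which kept its label. Other labels are in doubt as well. The column of BBCH77 node 5 replicate 2 holds 52887975 counts, more than the total reads the study's supplement lists for it. That of BBCH90 node 2 replicate 1 has the fewest counts of all 27 (34531620). The supplement lists the most reads of its group for it. All labels were kept as deposited, and which buds each column holds was not tested. The deposited column of BBCH63 replicate 2 is equal at all 35134 genes to that of replicate 3 of node 10 at BBCH90, which was not in the fit. The column's correlation with its own group at BBCH63 was r = 0.899.

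At BBCH77, 1376 genes were upregulated and 660 downregulated with respect to BBCH63, which is 5.98% and 2.87% of the genes tested. RNA came from whole buds, in which fewer cells of a type and less RNA per cell cannot be told apart. The rises were the larger changes. Their median log2 fold change was 1.74, and 226 genes rose at least 8-fold, 299 from 4-fold to 8-fold and 851 from 2-fold to 4-fold. The downregulated genes had a median log2 fold change of -1.33, with 14 genes, 48 genes and 598 genes in the same classes. The upregulated genes were mostly of low level, with a median of 4.53 CPM at BBCH77 and 1.21 CPM at BBCH63. The downregulated genes had a median of 4.95 CPM at BBCH77 and 12.97 CPM at BBCH63, where the median of all genes tested was 13.03 CPM. Together the upregulated genes took 4.92%, 5.15% and 6.27% of the counts at BBCH77, against 2.03%, 1.74% and 1.77% at BBCH63. The downregulated genes took 1.42%, 1.47% and 1.84% at BBCH77, against 3.82%, 4.20% and 3.95% at BBCH63. The shares of counts did not overlap between stages in either set. Fits of other libraries gave fewer DEGs, with 535 upregulated and 432 downregulated when the 6 libraries of node 2 were fitted alone, and 395 and 79 when all 27 libraries were fitted, which brings in the libraries set aside by the study and places the repeated column in a group of BBCH90 as well. Without BBCH63 replicate 2, the library whose column occurs again in the table, there were 991 and 539.

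**Figure D1:**
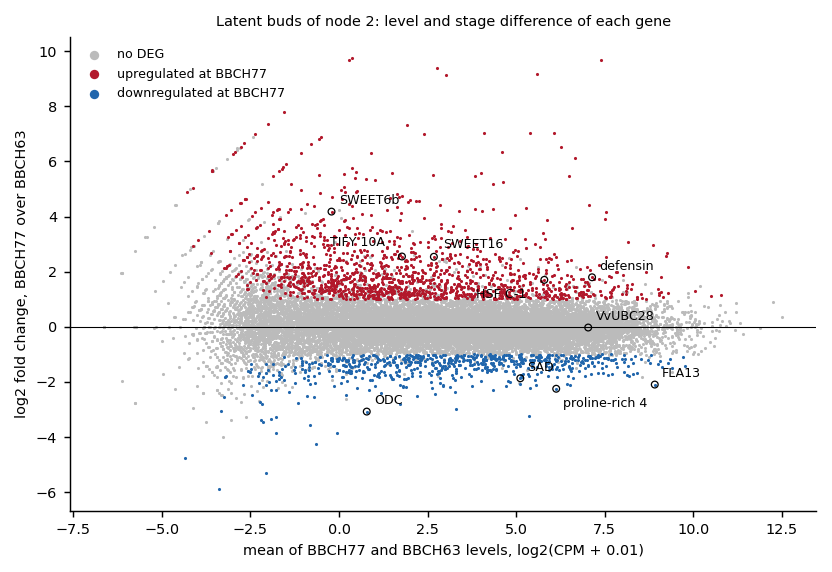
Each point is a gene, placed by its mean level in the node 2 libraries at BBCH77 and BBCH63 (horizontal, log2 CPM) and its log2 fold change, BBCH77 over BBCH63 (vertical). The 1376 upregulated genes (red) reach further from 0 than the 660 downregulated genes (blue), and circles mark genes named in the text (SAD, stearoyl-ACP desaturase Vitvi05g01619; ODC, ornithine decarboxylase).

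Among genes called on these same libraries, the stages overlapped for a smaller share of the falls than of the rises. The rises were also of lower level, with a median of 1.21 CPM at BBCH63 against 12.97 CPM. The CPM values of the 3 BBCH77 libraries lay entirely on 1 side of the 3 BBCH63 values for 648 of the 660 downregulated genes and for 1123 of the 1376 upregulated genes. Over all genes tested such a separation was found downward for 16.1% and upward for 16%. BBCH77 replicate 3 was the least changed of the 3 BBCH77 libraries for 633 upregulated and 387 downregulated genes, replicate 1 for 530 and 162, and replicate 2 for 213 and 111. Measured from the BBCH63 mean, the median log2 difference of the upregulated genes was 1.47 in replicate 1, 1.55 in replicate 2 and 1.42 in replicate 3. That of the downregulated genes was -1.39, -1.42 and -1.14. These genes were called with replicate 3 in the fit, so its direction in them is no separate check. It fell short of the mean of the other replicates by at least 1 log2 unit for 318 upregulated genes and went beyond it by as much for 230.

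Without BBCH77 replicate 3 the counts were larger, with 1538 upregulated genes (6.69%) and 957 downregulated genes (4.17%) of 22976 tested, 10.9% in all. Of the DEGs found with the library, 1118 upregulated and 564 downregulated genes were called again in the same direction. A further 420 genes became upregulated and 393 downregulated only without it.

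Descriptions of gene products were at hand for 189 genes that the study names or lists, all of which were tested. Most belong to 2 lists that the study drew up on these same libraries, of genes that fall (Group C, 138 genes) or rise (Group D, 32 genes) at each step from a stage to the next at every node. The direction of these genes at node 2, and at the other nodes, was thus part of how they were chosen, and their counts are given as a description. In Group D, 30 genes were upregulated (5.98% of all genes tested were) and 2 missed the limit, with a median log2 fold change of 1.82. In Group C, 131 were downregulated (2.87% of all genes tested were) and 7 missed the limit, with a median of -1.45, while the median over all genes tested was 0.02. Without BBCH77 replicate 3, the upregulated members of Group D numbered 24 and the downregulated members of Group C 130. The genes below are named from these lists, so large changes in genes without a description are mostly left unnamed. The roles given are those of related proteins in Arabidopsis or other plants.

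**Figure D2:**
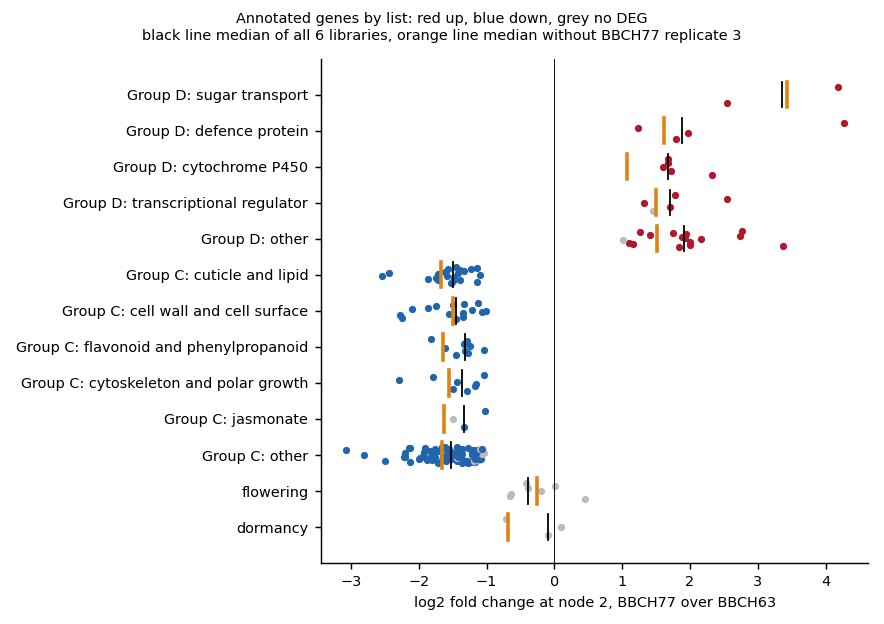
Points show the log2 fold change at node 2, BBCH77 over BBCH63 (horizontal), of each annotated gene in the lists on the vertical axis. Lines show the median with all 6 libraries of node 2 in the main fit (black) and without BBCH77 replicate 3 (orange). The medians of the Group C lists lay further from 0 without the library, whereas that of the cytochromes P450 of Group D was 1.68 with it and 1.07 without it.

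Among the upregulated genes, both sugar transporters of the SWEET family, membrane proteins that let sugars pass along their gradient, had large changes. SWEET16 (Vitvi14g00149), whose Arabidopsis relative sits in the vacuole membrane, had 14.9, 8.09 and 9.68 CPM at BBCH77, against 1.18, 2.46 and 1.96 CPM at BBCH63, and its log2 fold change was 2.54 (SE 0.37, adjusted p = 0.000142). SWEET6b (Vitvi14g01783) had 1.78, 1.62 and 1.46 CPM at BBCH77, against 0.0806, 0.0769 and 0.102 CPM at BBCH63, a log2 fold change of 4.18 (SE 0.48, adjusted p = 2.27e-05). Neither gene overlapped between stages, and both were called without replicate 3, with log2 fold changes of 2.61 and 4.24. The BBCH63 values of SWEET6b rest on 3, 3 and 4 counts, so the size of its rise is poorly fixed. The libraries labelled node 2 at BBCH90 are outside this comparison, and their labels are in doubt. They averaged 35.9 CPM of SWEET16 and 4.55 CPM of SWEET6b. Further transport proteins are named from Group D, which was chosen for rises, while Group C holds others that fell, such as ammonium transporter 3 member 1 (Vitvi07g00065, log2 fold change -1.42). The cation/H(+) antiporter 20 (Vitvi08g01172) had 11.98, 15.97 and 14.9 CPM at BBCH77, against 4.32, 3.51 and 3.76 CPM at BBCH63, with replicate 3 between the other 2 libraries, and a log2 fold change of 1.89 (SE 0.23, adjusted p = 3.56e-05). An organic cation/carnitine transporter (Vitvi19g01748) had 3.18, 8.20 and 4.92 CPM at BBCH77, against 1.101, 0.487 and 0.813 CPM at BBCH63, and a WAT1-related protein (Vitvi02g00287), of a family of membrane carriers that includes an auxin exporter of the vacuole in Arabidopsis, had 2.18, 2.12 and 3.06 CPM at BBCH77, against 0.322, 0.103 and 0.280 CPM at BBCH63. Their log2 fold changes were 2.76 and 3.38, with adjusted p of 0.000353 and 2.7e-05.

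Of 5 regulators of transcription in Group D, 4 were upregulated. The heat stress transcription factor C-1 (Vitvi11g00339) was the most abundant, with 73.2, 74.9 and 106 CPM at BBCH77, against 27.1, 24.7 and 26.4 CPM at BBCH63. Every BBCH77 value was well above every BBCH63 value, and the log2 fold change was 1.703 (SE 0.22, adjusted p = 4.97e-05). TIFY 10A (Vitvi12g02718), of the JAZ repressors of jasmonate signalling, had 4.60, 4.27 and 8.60 CPM at BBCH77, against 1.77, 0.667 and 0.559 CPM at BBCH63 and a log2 fold change of 2.55 (SE 0.42, adjusted p = 0.000415). It averaged 388 CPM in the libraries labelled node 2 at BBCH90. IAA9 (Vitvi11g00497), an auxin-responsive repressor, was scarce, with 1.32, 1.41 and 0.942 CPM at BBCH77, against 0.672, 0.461 and 0.330 CPM at BBCH63, and was called with and without replicate 3 (log2 fold change 1.32 and 1.48). The Myb-related protein Myb4 (Vitvi14g04262) behaved otherwise. It had 6.38, 31.1 and 55.3 CPM at BBCH77, against 9.16, 9.26 and 8.49 CPM at BBCH63, so that replicate 1 lay below every BBCH63 library while replicate 3 was highest, and its log2 fold change of 1.79 (SE 0.45, adjusted p = 0.00922) became 1.06 without replicate 3 (adjusted p = 0.0626).

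The 4 defence proteins of Group D were upregulated, and in the 2 abundant ones replicate 3 was the highest library. A defensin (Vitvi01g01476), a small antifungal peptide, had 109, 192 and 357 CPM at BBCH77, against 73.8, 54.5 and 61.0 CPM at BBCH63, a log2 fold change of 1.80 (SE 0.31, adjusted p = 0.000702), which was 1.25 without replicate 3 (adjusted p = 0.00182). An osmotin-like protein (Vitvi06g00440) had 163, 211 and 486 CPM at BBCH77, against 99.5, 153 and 115 CPM at BBCH63, and its log2 fold change of 1.23 (SE 0.30, adjusted p = 0.00796) was 0.61 without replicate 3 (adjusted p = 0.0533), where it was no DEG. The other BBCH77 replicates of the osmotin-like gene stood just above the BBCH63 values. A lectin (Vitvi01g01884) was below 2 CPM throughout, with 1.05, 0.955 and 0.966 CPM at BBCH77, against 0.295, 0.179 and 0.280 CPM at BBCH63. An acidic endochitinase (Vitvi16g01978), an enzyme that degrades chitin, had 0.538, 1.62 and 0.518 CPM at BBCH77, against 0.0269, 0 and 0.102 CPM at BBCH63, where its BBCH63 values rest on 1, 0 and 4 counts.

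The cytochromes P450 are oxidases of secondary metabolism and of hormones. All 5 in Group D, which was chosen for rises, were upregulated with all 6 node 2 libraries in the main fit (5.98% of all genes tested were). Without BBCH77 replicate 3, 2 of them were (6.69% of all genes tested were). The pair of P450 82C4 genes showed the pattern. Vitvi03g00413 had 3.47, 6.98 and 17.1 CPM at BBCH77, against 3.76, 3.05 and 1.80 CPM at BBCH63, and Vitvi03g04145 had 4.39, 8.97 and 20.04 CPM at BBCH77, against 4.11, 3.999 and 2.31 CPM at BBCH63, values in which replicate 1 was within or beside the BBCH63 range and replicate 3 several times higher. Their log2 fold changes of 1.68 and 1.68 became 0.86 and 0.94 without it. These 2 genes carry the same description, and reads could be shared between near-identical copies. P450 78A4 (Vitvi01g01644) differed from them, being highest in replicate 2, with 0.834, 4.94 and 1.22 CPM at BBCH77, against 0.457, 0.513 and 0.407 CPM at BBCH63. Other enzymes and proteins with a rise were methylecgonone reductase (Vitvi05g00018, log2 fold change 2.00), the L-asparaginase Vitvi18g00730 (1.26), which releases nitrogen stored in asparagine, the chloroplast chaperone dnaJ C76 (Vitvi10g01384, 2.75) and early nodulin-75-like (Vitvi05g01943, 2.17), all 4 called with and without replicate 3.

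**Figure D3:**
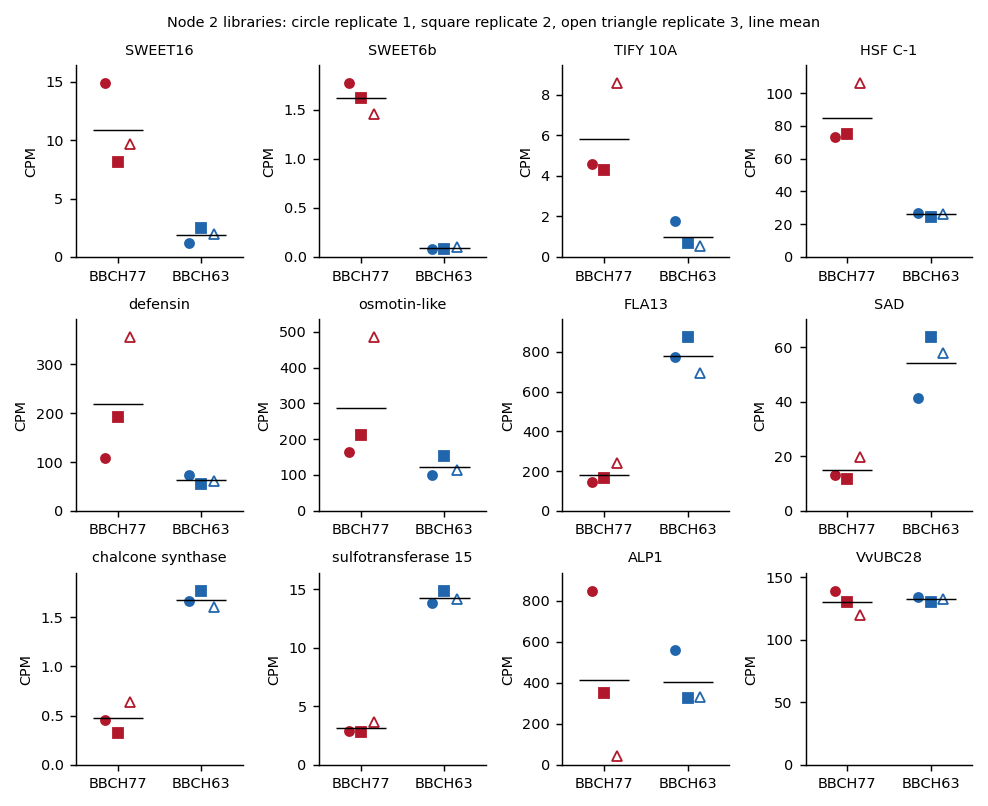
CPM (vertical, from 0) of 12 genes in each node 2 library, BBCH77 at the left in red and BBCH63 at the right in blue, with replicates 1, 2 and 3 as circle, square and open triangle and the mean as a line. SWEET16, SWEET6b, HSF C-1, FLA13 and SAD separate the stages in every replicate. The osmotin-like gene does so too, but with BBCH77 replicate 3 far above the other libraries. In ALP1 the stages overlap, with BBCH77 replicate 1 the highest and replicate 3 the lowest library.

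The largest described group of falls concerned the cuticle and lipids. This list and the lists of falls below are parts of Group C, chosen by the study for falls, so their full counts follow from the choice. Genes of these functions outside Group C were not counted. All 21 genes of the cuticle and lipid list were downregulated (2.87% of all genes tested were), with log2 fold changes of -2.54 to -1.09, and all 21 without replicate 3. They include the desaturases and elongases that supply fatty acids, the enzymes that turn these into waxes and cutin, and GDSL esterases/lipases, a family with cutin-forming members, of which 8 of 8 fell. The stearoyl-ACP desaturase Vitvi05g01619, which makes the first double bond of fatty acids, had 13.1, 11.8 and 19.8 CPM at BBCH77, against 41.4, 63.9 and 57.9 CPM at BBCH63. Its stages were well apart, with a log2 fold change of -1.87 (SE 0.36, adjusted p = 0.00152). A second desaturase, Vitvi05g01620, next to it in number, had 4.20, 3.56 and 4.85 CPM at BBCH77, against 11.7, 14.7 and 15.9 CPM at BBCH63, and 4 desaturase genes with the same description fell in all, among which reads could be shared. Further along the pathway, 3-ketoacyl-CoA synthase 5 (Vitvi16g00804), of the elongation complex of very-long-chain fatty acids, had 35.9, 46.6 and 54.4 CPM at BBCH77, against 86.2, 119 and 116 CPM at BBCH63. The wax ester synthase WSD1 (Vitvi12g00292) had 39.5, 44.6 and 61.8 CPM at BBCH77, against 129, 143 and 117 CPM at BBCH63, and its log2 fold change was -1.42 (SE 0.19, adjusted p = 6.8e-05). The fatty acyl-CoA reductase Vitvi06g01455 had the largest fall of the list at a much lower level, with 0.108, 0.0796 and 0.330 CPM at BBCH77, against 0.430, 1.49 and 1.19 CPM at BBCH63 and a log2 fold change of -2.54 (SE 0.59, adjusted p = 0.00557). Of the GDSL genes, GDSL esterase/lipase APG (Vitvi09g00264) was the most abundant, with 111, 111 and 223 CPM at BBCH77, against 456, 536 and 463 CPM at BBCH63. Replicate 3 stood highest among the BBCH77 libraries for APG, still less than any BBCH63 library. GDSL esterase/lipase At5g45910-like (Vitvi12g00213) had 1.56, 1.49 and 3.09 CPM at BBCH77, against 13.8, 11.1 and 8.41 CPM at BBCH63, a log2 fold change of -2.44 (SE 0.43, adjusted p = 0.000715).

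All 15 genes of the cell wall and cell surface fell, with and without replicate 3, by log2 fold changes of -2.28 to -1.01. Their mean level at BBCH63 ran from 3.78 to 806 CPM. Fasciclin-like arabinogalactan protein 13 (Vitvi12g00248), a glycoprotein of the cell surface, had 145, 163 and 239.9 CPM at BBCH77, against 773, 875 and 692 CPM at BBCH63, a log2 fold change of -2.10 (SE 0.39, adjusted p = 0.00107). Classical arabinogalactan protein 9 (Vitvi03g00598) had 259, 317 and 312 CPM at BBCH77, against 855, 844 and 719.8 CPM at BBCH63, with a log2 fold change of -1.45 (SE 0.25, adjusted p = 0.000753). No BBCH77 library reached even the lowest BBCH63 value of either gene. The structural proteins proline-rich protein 4-like (Vitvi03g01389) and glycine-rich protein 5 (Vitvi05g04197) had log2 fold changes of -2.25 and -2.28. A xyloglucan endotransglucosylase/hydrolase (Vitvi05g01266), which cuts and rejoins wall polymers during growth, had 26.97, 42.9 and 43.01 CPM at BBCH77, against 68.3, 109.9 and 108 CPM at BBCH63. The libraries labelled node 2 at BBCH90 averaged 2.84 CPM of fasciclin-like arabinogalactan protein 13 and 11.2 CPM of arabinogalactan protein 9.

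The 10 genes of flavonoid and phenylpropanoid metabolism were downregulated, with log2 fold changes of -1.82 to -1.04, and were again without replicate 3. Among them were 3 genes described as chalcone synthase, the entry enzyme of flavonoids, all at low level. The chalcone synthase Vitvi16g04303 had 0.458, 0.318 and 0.636 CPM at BBCH77, against 1.67, 1.77 and 1.60 CPM at BBCH63, with a log2 fold change of -1.82 (SE 0.34, adjusted p = 0.00191), and Vitvi00g04529 had 1.37, 1.80 and 2.73 CPM at BBCH77, against 6.64, 5.31 and 4.35 CPM at BBCH63. Leucoanthocyanidin reductase 1 (Vitvi01g00234), which makes building blocks of condensed tannins, was more abundant, with 61.6, 59.7 and 81.7 CPM at BBCH77, against 149, 172 and 185 CPM at BBCH63 and a log2 fold change of -1.32 (SE 0.24, adjusted p = 0.00109). A stilbene synthase (Vitvi16g00752) fell as well, with 1.43, 1.09 and 2.50 CPM at BBCH77, against 4.49, 4.18 and 3.64 CPM at BBCH63. Chalcone and stilbene synthases form families of near-identical copies in grapevine, so the values of single members are uncertain.

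The 8 genes of the cytoskeleton and polar growth were downregulated, and 7 of them without replicate 3, where tubulin beta-1 chain (Vitvi18g01120, log2 fold change -1.04 with and -0.96 without) missed the limit of fold change. The actin nucleator formin-like protein 8 (Vitvi17g00731) had a log2 fold change of -1.79 (SE 0.35, adjusted p = 0.00152). Of 3 genes of jasmonate synthesis and activation, allene oxide synthase 3 (Vitvi03g00391, log2 fold change -1.34) and JAR1 (Vitvi12g00480, -1.02), which couples jasmonate to isoleucine, were downregulated. The 3-like copy of the synthase (Vitvi03g00393) had 0.0269, 0.0796 and 0.212 CPM at BBCH77, against 0.322, 0.333 and 0.280 CPM at BBCH63 and missed the limit (adjusted p = 0.0575). Its BBCH77 values rest on 1, 3 and 9 counts. Without replicate 3 it was called (log2 fold change -2.48, adjusted p = 0.0064), and all 3 genes were downregulated.

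Of the remaining 81 genes of Group C, 75 were downregulated. Ornithine decarboxylase (Vitvi18g00156), an entry enzyme of polyamine synthesis, had the largest fall of Group C, with 0.431, 0.372 and 0.283 CPM at BBCH77, against 2.07, 4.13 and 2.97 CPM at BBCH63 and a log2 fold change of -3.08 (SE 0.49, adjusted p = 0.000415). The auxin-binding protein ABP19a (Vitvi09g01515) had 0.808, 0.478 and 1.18 CPM at BBCH77, against 4.35, 6.51 and 6.51 CPM at BBCH63 and a log2 fold change of -2.81 (SE 0.36, adjusted p = 5.67e-05). The lowest adjusted p belonged to cytosolic sulfotransferase 15 (Vitvi13g00864), with 2.91, 2.79 and 3.63 CPM at BBCH77, against 13.8, 14.9 and 14.1 CPM at BBCH63 and a log2 fold change of -2.20 (SE 0.18, adjusted p = 1.58e-06). The next 3 genes, of sucrose turnover, were picked from Group C after their values were seen. Sucrose-phosphate synthase 1 (Vitvi04g00508), which makes sucrose, had 4.44, 4.33 and 5.63 CPM at BBCH77, against 13.9, 19.4 and 17.3 CPM at BBCH63, and the soluble beta-fructofuranosidase Vitvi16g00713, which cleaves it, had 15.4, 20.4 and 31.0 CPM at BBCH77, against 51.4, 98.0 and 70.4 CPM at BBCH63. Hexokinase-2 (Vitvi09g00279), which phosphorylates the released hexoses, had 0.942, 0.743 and 1.11 CPM at BBCH77, against 2.31, 4.23 and 3.23 CPM at BBCH63. The abundant protein E6 (Vitvi10g01771), first known from cotton fibres, had 307, 316 and 448 CPM at BBCH77, against 1049.9, 995 and 943 CPM at BBCH63. Aldehyde dehydrogenase 3F1 (Vitvi04g01402) had 282, 253 and 341 CPM at BBCH77, against 724, 762 and 738 CPM at BBCH63 and a log2 fold change of -1.34 (SE 0.17, adjusted p = 5.67e-05).

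None of 7 flowering genes was a DEG in edgeR, against 8.85% of all genes tested. At that share a count of 0 among so few genes says little. In the edgeR test 3 had an unadjusted p under 0.05, and DESeq2 called 0. VvFLC, a relative of the Arabidopsis floral repressor, came nearest. It had 76.7, 85.7 and 71.9 CPM at BBCH77, against 117, 123 and 125 CPM at BBCH63, without overlap, and passed the test but not the 2-fold limit, with a log2 fold change of -0.64 (SE 0.14, adjusted p = 0.00318). VvVFL had a log2 fold change of 0.45 (SE 0.21, adjusted p = 0.132), and the floral repressor VvTFL1A (Vitvi06g01473), which keeps meristems indeterminate, had 5.90, 7.56 and 1.30 CPM at BBCH77, against 5.00, 7.82 and 10.4 CPM at BBCH63 (adjusted p = 0.278). Replicate 3 was the lowest of the 6 libraries for VvTFL1A. The floral integrator VvSOC1 had 61.3, 61.8 and 69.1 CPM at BBCH77, against 63.5, 73.2 and 82.6 CPM at BBCH63, and VvCO, of the photoperiod pathway, 18.7, 22.5 and 26.9 CPM at BBCH77, against 23.7, 30.7 and 34.4 CPM at BBCH63, with overlap in both. VvCOL1 and the clock gene VvELF4 had log2 fold changes of 0.01 and -0.42 (adjusted p = 0.953 and 0.110). Without replicate 3 there was no DEG among the 7 genes either, but VvELF4 passed the test with a log2 fold change of -0.73 (adjusted p = 0.00245), and VvTFL1A was at -0.21 with replicate 3 left out and -0.66 with it.

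Of 3 dormancy-associated protein-like genes, edgeR and DESeq2 called 0, and 1 had an unadjusted p under 0.05 in edgeR. As edgeR called 8.85% of all genes tested, a count of 0 among so few says little. Protein-like 3 (Vitvi14g00142) had 212, 258 and 214 CPM at BBCH77, against 358, 389 and 377 CPM at BBCH63, without overlap, and a log2 fold change of -0.72 (SE 0.19, adjusted p = 0.0106), past the test and short of 2-fold. Protein-like 1 (Vitvi10g00485) was highest in BBCH77 replicates 1 and 2, with 1289, 1154 and 653 CPM at BBCH77, against 854, 992 and 1034 CPM at BBCH63, so that replicate 3 lay below the whole BBCH63 group. Protein-like 4 (Vitvi09g00050) showed the reverse, with 36.2, 31.9 and 95.7 CPM at BBCH77, against 48.8, 67.1 and 58.2 CPM at BBCH63, replicates 1 and 2 being lower than the BBCH63 libraries and replicate 3 higher. With replicate 3 left out its log2 fold change was -0.77 (adjusted p = 0.0185), and that of protein-like 3 was -0.68 (adjusted p = 0.0260).

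Replicate 3 of BBCH77 also stood apart in ALP1 and ERF020, chosen by the study for qPCR. ALP1 (Vitvi11g00140) had 849, 352 and 43.4 CPM at BBCH77, against 562, 326 and 330.2 CPM at BBCH63, and averaged 135 CPM at BBCH77 against 59.5 CPM at BBCH63 at node 5, and 118 against 53.1 CPM at node 10. The transcription factor gene ERF020 (Vitvi18g02191), which the study lists as lower at node 5 than at node 2 at every stage, had 19.9, 7.70 and 0.683 CPM at BBCH77, against 33.7, 7.54 and 8.06 CPM at BBCH63, and averaged 1.44 CPM at BBCH77 against 1.13 CPM at BBCH63 at node 5, and 1.77 against 1.33 CPM at node 10. Group A, the list of such genes, holds 6 genes, of which edgeR called 0 between the stages, with 0 at an unadjusted p under 0.05. The same was found for the 1 gene of its counterpart (Group B). With 8.85% of all genes tested called, these counts say little about so few genes. For ALP1 and ERF020 replicate 3 was the lowest of the node 2 libraries, and neither was a DEG of the stage (adjusted p = 0.986 and 0.582). Replicate 1 was the highest of its stage for ALP1 and ERF020 at BBCH77 and at BBCH63. The qPCR reference gene VvUBC28 (Vitvi19g00744) was even, with 139, 129.9 and 120.0 CPM at BBCH77, against 134, 129.6 and 132 CPM at BBCH63 and a log2 fold change of -0.03.

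Among DEGs of at least 5 CPM without overlap that were called again without BBCH77 replicate 3, the 2 largest rises and the 2 largest falls were in genes without a description. Vitvi10g04092 had 12.5, 19.2 and 9.40 CPM at BBCH77, against 0, 0.0256 and 0.0254 CPM at BBCH63, where the BBCH63 libraries held at most 1 count, and against a floor of 3 counts per library (0.0806 CPM) it was at least 170-fold higher at BBCH77. Vitvi11g00948 had 431, 427 and 141 CPM at BBCH77, against 0.645, 0.205 and 0.381 CPM at BBCH63. Its 3 BBCH77 values were all far above the BBCH63 values, and replicate 3 was the lowest of them, nearer to the mean of 87.7 CPM of node 5 at BBCH77. Of the falls, Vitvi08g02374 had 11.7, 7.78 and 4.15 CPM at BBCH77, against 129, 55.0 and 39.0 CPM at BBCH63, with a log2 fold change of -3.24 (SE 0.78, adjusted p = 0.00680), and Vitvi12g02263 had 1.27, 3.03 and 2.28 CPM at BBCH77, against 21.3, 15.9 and 15.2 CPM at BBCH63, with -2.99 (SE 0.58, adjusted p = 0.00156). In all, 106 upregulated genes had at most 3 counts in every BBCH63 library, and 14 downregulated genes as few in every BBCH77 library. For these the fitted fold change has no fixed size.

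The same step was tested at nodes 5 and 10. By their labels these share no library with that of node 2, but they share its fit and sampling sessions. As BBCH77 replicate 2 of node 5 holds more counts than its listed reads, labels are in doubt here too. By the paper's methods, buds of the different nodes were taken from the shoots collected at each session. The main fit took no account of this, so the nodes are no independent check. There 1234 genes (5.37%) were upregulated and 747 (3.25%) downregulated at node 5, 8.61% of the genes tested, and 1457 (6.34%) and 755 (3.28%) at node 10, or 9.62%. Of the 1376 genes upregulated at node 2, 658 (47.8%) were upregulated at node 5, 563 (40.9%) at node 10 and 454 (33.0%) at both. Of the 660 downregulated genes, 320 (48.5%) were downregulated at node 5, 305 (46.2%) at node 10 and 226 (34.2%) at both. Few went the opposite way. Among the upregulated genes, 2 were downregulated at node 5 and 3 at node 10, and among the downregulated genes 1 was upregulated at node 5 and 0 at node 10. With the genes that passed the limit at the other node included, the sign was shared by 95.2% of the upregulated genes at node 5 and 90.4% at node 10, and by 97.4% and 94.8% of the downregulated genes. The median log2 fold change of the genes upregulated at node 2 was 1.74 there, 1.24 at node 5 and 1.25 at node 10, and that of the downregulated genes was -1.33, -1.03 and -1.09. The genes were chosen for a large change at node 2, so its larger medians are no difference between nodes.

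**Figure D4:**
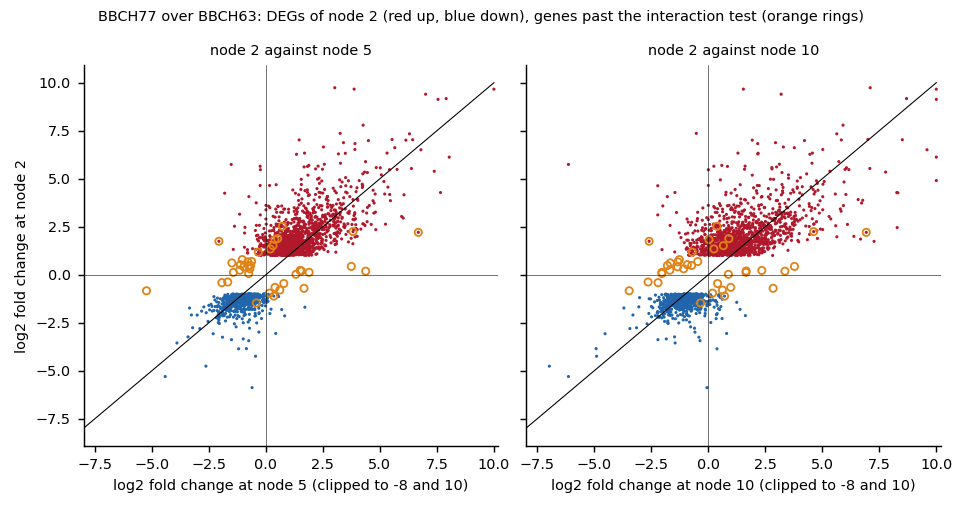
Log2 fold change, BBCH77 over BBCH63, of the DEGs of node 2 at node 2 (vertical) and at node 5 or node 10 (horizontal, values past the ends drawn at the ends), upregulated genes in red and downregulated genes in blue, with the line of equal change. Most points share the sign at the other node, and orange rings mark the 37 genes past the interaction test, whether or not they were DEGs of node 2.

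Whether the step itself differed between node 2 and the mean of nodes 5 and 10 was tested as an interaction. With all replicates and the limits used for DEGs, 37 genes differed (0.161%), 22 with a higher (0.0957%) and 15 with a lower step (0.0652%) at node 2. Of the DEGs of node 2, 9 upregulated and 2 downregulated genes were among them. Set against node 5 alone the interaction was found for 3 genes (0.013%), all with a lower step at node 2, and against node 10 alone for 4 (0.0174%), of which 1 had a higher step (0.00435%). Examples named here were chosen after their values were seen. Vitvi02g01409 rose at node 2, with 441, 281 and 233 CPM at BBCH77, against 69.2, 39.3 and 57.9 CPM at BBCH63, and averaged 119.7 CPM at BBCH77 against 72.8 CPM at BBCH63 at node 5, and 166 against 128 CPM at node 10, a difference of the step of 1.97 (SE 0.35, adjusted p = 0.0318) in log2 units. Vitvi19g02039 did likewise, with 118, 86.1 and 95.5 CPM at BBCH77, against 38.4, 21.5 and 24.4 CPM at BBCH63 and a difference of 1.62 (SE 0.29, adjusted p = 0.0356). For Vitvi09g01493 the node 2 libraries were high at both stages, with 141, 161 and 121 CPM at BBCH77, against 121, 114 and 79.7 CPM at BBCH63, whereas the gene averaged 113 CPM at BBCH77 against 8.47 CPM at BBCH63 at node 5, and 81.6 against 5.95 CPM at node 10. The difference of the step was -3.33 (SE 0.34, adjusted p = 0.000291). Vitvi12g01598 rose at node 2, with 9.15, 12.3 and 12.1 CPM at BBCH77, against 4.59, 1.44 and 1.27 CPM at BBCH63, and averaged 20.04 CPM at BBCH77 against 0.191 CPM at BBCH63 at node 5, and 18.8 against 0.152 CPM at node 10, with a difference of -4.60 (SE 0.76, adjusted p = 0.0255).

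This count hung on BBCH77 replicate 3. Without it the steps differed for 795 of 22976 genes (3.46%), 444 with a higher step at node 2 (1.93%) and 351 with a lower one (1.53%), and 36 of the 37 genes were among these in the same direction. Leaving out any other node 2 library gave 3 to 16 genes. Of the 444 genes, 240 were upregulated at node 2 without replicate 3 and 204 were no DEGs. Of the 351 genes, 83 were downregulated at node 2, 20 upregulated and 248 no DEGs. Among the 189 genes with a description, 7 had a different step at node 2 once replicate 3 was left out. The share over all genes tested was 3.46%, so this count is no result about the described genes. Dormancy-associated protein-like 1 was the only one with a higher step, with a log2 fold change of 0.34 at node 2 against -0.82 at node 5 and -0.76 at node 10 (difference 1.13, SE 0.25, adjusted p = 0.0108). The other 6 were members of Group D that rose less at node 2. They were the P450 genes Vitvi03g00407, Vitvi03g00413 and Vitvi03g04145, with differences of -1.37, -1.73 and -1.53, early nodulin-75-like with -1.11, TIFY 10A with -2.39 and Myb4 with -2.08. For TIFY 10A the log2 fold change was 2.15 at node 2 without replicate 3, against 3.48 at node 5 and 5.59 at node 10. Of the 138 genes of Group C, edgeR called 0, and 10 had an unadjusted p under 0.05, as had 5724 of all 22976 genes. Group C was chosen on these libraries for falls at every node, so its low count follows partly from the choice. GDSL esterase/lipase APG (difference -0.9986, adjusted p = 0.0187) and Vitvi14g01885 (-0.9978, adjusted p = 0.0385) passed the test and just missed the 2-fold limit. With replicate 3 in the fit none of these 7 genes passed, the adjusted p of TIFY 10A being 0.160 and that of dormancy-associated protein-like 1 0.179. The counts without replicate 3 rest on 2 BBCH77 libraries of node 2, and all interaction counts rest on the node labels as deposited.

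**Figure D5:**
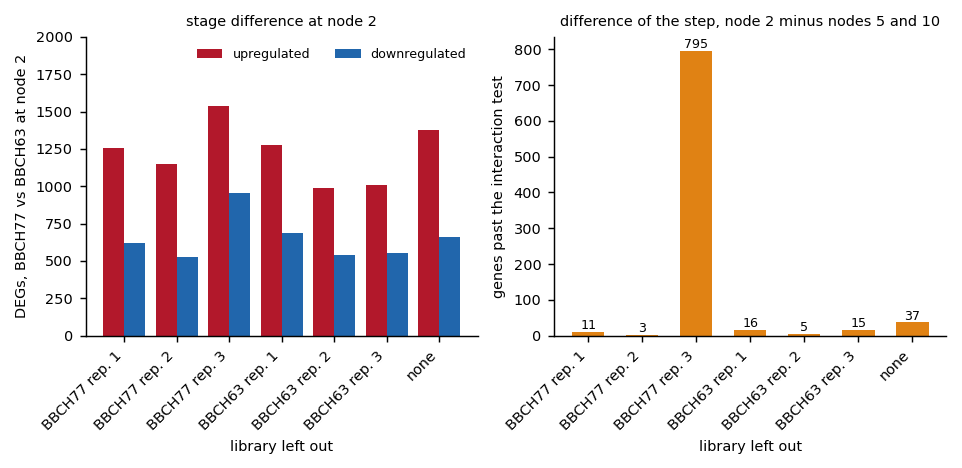
Left, the number of DEGs of BBCH77 vs BBCH63 at node 2 (red up, blue down), and right, the number of genes whose step differed between node 2 and the mean of nodes 5 and 10, each with 1 library of node 2 left out (horizontal) or none. The DEGs stay between 991 and 1538 upregulated and 527 and 957 downregulated, whereas the interaction gives 795 genes without BBCH77 replicate 3 and 3 to 16 without another library.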

How the data were processed

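RNA-Seq was done on latent buds, with 3 libraries of node 2 at BBCH77 and 3 at BBCH63 compared here. The authors trimmed adaptors, aligned them to PN40024.v4 and deposited counts per gene that are not normalized. The submitters' processing notes name FastQC, HISAT2 and HTSeq, with no role or version. The labels name the Spectrum Plant Total RNA kit and the paper another kit. Library preparation was stranded, and the strand setting of the counting is not given in the sources used here.

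The filterByExpr function of edgeR 4.0.16 (R 4.3.3) kept genes at a minimum count of 10, counts were scaled by TMM, and 1 mean per group was fitted over 24 libraries, leaving out replicate 3 of node 10 at each stage as the study did. Contrasts were tested in edgeR with quasi-likelihood F tests, and p values were adjusted after Benjamini and Hochberg. SE was taken from the log2 fold change and F. Correlations used log2 CPM (prior count 4), centred by gene. Tests were checked on simulated data. Alternatives were DESeq2 1.42.0, its size factors in edgeR, no filter, other sets of libraries, a replicate block, an adjusted p of 0.01, each node 2 library left out, and, chosen after seeing the data, 5 libraries of node 2 and glmTreat.

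Genes named were those the study names by identifier. To these came the 10 largest rises and falls with a description, at least 5 CPM, no overlap and a call also without BBCH77 replicate 3. The 2 largest of each under these limits, with no condition on a description, were added. So were up to 4 per list and the 5 most abundant of each direction. Further list members were added after their values were seen. Members, lists and rules were chosen with earlier results of these data known. RefSeq gene names matched 134 of 177 accessions, and lists by keywords could not be applied (0 lists). Floors cover counting error only. Python 3.11.15 and matplotlib 3.10.9 drew the figures.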

Additional observations from a re-analysis of the deposited data

Results flagged for a closer look

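The step from BBCH63 to BBCH77 differed between node 2 and the mean of nodes 5 and 10 for 37 genes, by a test of the difference itself in edgeR with Benjamini-Hochberg adjustment. Vitvi02g01409 and Vitvi19g02039 had a step higher at node 2 by 1.97 and 1.62 log2 units, with adjusted p of 0.0318 and 0.0356. Vitvi12g01598 and Vitvi09g01493 had a lower step, with differences of -4.60 and -3.33 log2 units and adjusted p of 0.0255 and 0.000291. Without BBCH77 replicate 3 of node 2 the count was 795, with 36 of the 37 genes among them in the same direction. Leaving out any other node 2 library gave 3 to 16 genes, an adjusted p under 0.01 gave 1, glmTreat 1, all 27 libraries 0 (1385 at an unadjusted p under 0.05), the replicate block 22 and DESeq2 269. Groups of 3 libraries were too small to be searched for single distant values. Node labels were kept as deposited, and that of BBCH77 replicate 2 of node 5 is in doubt as well.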

How the results depend on the processing

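The direction of all 54 named DEGs was kept under every alternative run, and no DEG was called in the opposite direction. Of the 54, 51 missed the limits with all 27 libraries, 41 with the replicate block in the 6 libraries of node 2, 35 with glmTreat and 13 in those 6 libraries without a block, and 0 to 6 under each of the other alternatives. The main counts were 1376 upregulated and 660 downregulated genes, 978 DEGs of node 2 shared with node 5, 868 shared with node 10, and 37 genes with a different step. With an adjusted p under 0.01 these were 825, 432, 599, 457 and 1. With all 27 libraries they were 395, 79, 169, 0 and 0, the last with 1385 genes at an unadjusted p under 0.05, and 83.3% of the DEGs were rises, against 67.6% with 24 libraries. With glmTreat they were 199, 26, 94, 84 and 1 (88.4% rises). The 6 libraries of node 2 alone gave 535 and 432 DEGs (55.3% rises), and with a replicate block 85 and 69 (55.2%). With the replicate block in 24 libraries the DEGs were 1370 and 722 and the interaction gave 22 genes. Between the stages at node 2, deviations of same-numbered replicates correlated at 0.179, -0.0273 and -0.0104. So few libraries cannot settle whether the numbers pair samples, and pairing between nodes within a session was not tested. DESeq2 gave 1461 and 713 DEGs, sharing 1994 genes and directions with edgeR, and 269 genes with a different step. Leaving out 1 library of node 2 gave 991 to 1538 upregulated and 527 to 957 downregulated genes, 771 to 997 shared with node 5, 672 to 926 shared with node 10, and 3 to 795 with a different step. The cause of these differences was not tested.

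Some genes that were no DEGs changed sign. Leaving out 1 library put dormancy-associated protein-like 4 (Vitvi09g00050) at -0.77 to 0.19 log2 units, with 0.14 without BBCH77 replicate 1 and 0.024 without BBCH63 replicate 2. Protein-like 1 (Vitvi10g00485) ranged from -0.087 (without BBCH77 replicate 1) to 0.34. ALP1 (Vitvi11g00140) ranged from -1.04 (without BBCH77 replicate 1) to 0.56, with -0.11 and -0.097 without BBCH63 replicates 2 and 3, and was at -0.61 and -0.65 with the replicate block in 24 and 6 libraries. VvCOL1 (Vitvi04g00665) ranged from -0.057 (without BBCH77 replicate 3) to 0.064, with -0.033 without BBCH63 replicate 2 and -0.063 in 5 libraries of node 2. VvUBC28 (Vitvi19g00744) ranged from -0.079 to 0.022 (without BBCH77 replicate 3), with 0.016 in 5 libraries, and ERF020 (Vitvi18g02191) from -1.98 to 0.27 (without BBCH63 replicate 1).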
